A study of Mus musculus with 18 samples.

Results

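The middle and the caudal neocortex of the mouse embryo were compared directly on 6 of the 18 arrays of the series. These are the 6 arrays on which a pool of middle tissue and a pool of caudal tissue were hybridised together, and they were chosen from the channel labels alone. The tissue was neocortex of MF1 embryos, an outbred mouse stock, at stage E13.5, counted in days of gestation. Rostral, middle and caudal pieces from 4 embryos gave 9 pools of total RNA, 3 per region, and no treatment or genetic change is given in the labels. As far as the labels go, the middle and caudal groups differ in the position of the tissue. How the embryos were divided over the pools is not in the labels, so the p-values measure the spread between these pools and arrays, which may be technical.

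The neocortex at this age is a sheet in which radial glia divide along the ventricle, intermediate progenitors divide above them, and the first neurons settle beneath the meninges. Signals from the edges of the sheet, among them FGFs at the rostral pole and WNTs and BMPs at the caudomedial hem, set up graded transcription factors such as Nr2f1. Neurogenesis starts earlier at the rostrolateral end of the sheet than at the caudomedial end, so regions differ in maturity as well as in identity. In such bulk pools, fewer cells of a type and less RNA per cell cannot be told apart.

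The 6 arrays form a closed ring. Middle pool 3 was hybridised with caudal pools 2 and 1, middle pool 2 with caudal pools 1 and 3, and middle pool 1 with caudal pools 3 and 2. Each of the 6 pools was on 2 of these arrays, once per dye, and same-numbered pools never met on an array. Middle RNA was in Cy5 on arrays 5, 7 and 15 and in Cy3 on arrays 6, 14 and 16. The deposited value is 1 log2 ratio per probe and array, and 18809 features had at least 2 values in each dye orientation. Of these, 14827 had 6 values, 2989 had 5 and 993 had 4, and 13516 genes were represented. Precision is limited by having 6 arrays and 3 pools per region.

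All differences below are middle minus caudal on the log2 scale, relative to the median of each array, with the dye term removed. A positive value means a higher level in middle tissue. This direction is likely, not stated: the numerator dye is not in the labels. Ratios were taken as Cy5 over Cy3, following the channel order. Nr2f1, reported elsewhere as a caudal gene, then gave a rostral minus caudal value of -1.02, and Etv1, reported as rostral, gave 0.80. Etv5, an ETS factor gene like Etv1, gave 0.31 on 1 feature and -0.06 on another. If the ratio ran the other way, every sign would turn. Removing the dye term makes the means of both orientations equal, so evenness between orientations is no result.

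No feature passed. Limma's test over the 18809 features called 0 at an adjusted p under 0.05 (0%), with a lowest adjusted p of 0.399. At an unadjusted p under 0.05 there were 1093 features, 639 with a positive value (3.4% of those tested) and 454 with a negative value (2.41%). These shares are the background against which the counts of genes below were read. Among the features with 6 values, 704 differed by more than 0.5 and 92 by more than 1. All 6 arrays lay on the same side of 0 for 1532 of them (10.3%), 873 positive and 659 negative. The genes named below are thus described by their values and errors, and none is a called difference.

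The dye term was larger in median size than the regional difference. Around the ring the 6 ratios sum to 6 times the dye term whatever the pools hold, so that term is measured free of the tissue. The median size of the dye term was 0.128 over all features tested, against 0.095 for the difference between middle and caudal. The median standard error of that difference was 0.105, so its median size was no larger than its median error. The same fit called 42 features for the dye (0.223%), 17 higher in Cy5 and 25 higher in Cy3, and 4574 had an unadjusted p under 0.05 for it. Before the dye term was removed, arrays of the same orientation correlated across features at 0.10 to 0.30, and arrays of opposite orientation at -0.25 to -0.04. Features are not independent replicates, neighbouring arrays in the ring share a pool, and these correlations are given as a description.

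**Figure D1:**
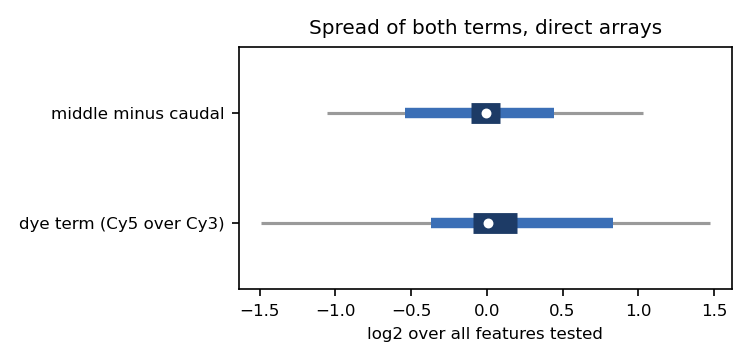
Spread of the middle minus caudal difference and of the dye term over the 18809 features tested on the 6 direct arrays (log2). White points are medians, dark bars the 25th to 75th percentile, blue bars the 5th to 95th percentile and grey lines the 1st to 99th percentile. The dye term reached 0.84 at its 95th percentile and the regional difference 0.44.

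The genes with the lowest p among those above 0.3 in size and on the same side of 0 on all 6 arrays were taken, 15 in each direction. Values that are even over the 6 arrays follow from that choice. Of 13516 genes, 162 qualified with a positive value and 83 with a negative one. The 12 arrays that carried rostral pools give a value for middle minus caudal of their own, through the rostral pools. They are separate hybridisations of the same RNA pools, so they bear on array error and not on differences between embryos. This indirect value is given beside the direct one for the 27 of the 30 genes that have it. Over the 10278 genes with an indirect value its median was 0.023, against -0.003 for the direct value of all 13516 genes.

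Chaf1b, a subunit of the chromatin assembly factor that places histones on newly copied DNA, had the largest positive value of the 15. Its 6 arrays gave 0.77, 1.28, 0.98, 0.50, 1.41 and 1.11, in the order of arrays 5, 7, 15, 6, 14 and 16, which is kept in what follows. All were positive, and the lowest was the array of middle pool 3 with caudal pool 1. The fitted difference was 1.01 ± 0.16 (SE, 6 arrays, 3 pools per region), 2.01-fold, with limma's adjusted p at 0.54. The indirect value was 1.06 ± 0.20.

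Scrn1, which encodes secernin 1, a protein linked to secretion in mast cells, gave 0.74, 0.77, 0.51, 0.54, 0.70 and 0.78. Its difference was 0.67 ± 0.07, 1.59-fold (limma's adjusted p = 0.42), and the indirect value 0.77 ± 0.13. Acss1, a mitochondrial acetyl-CoA synthetase, had the lowest p of the positive genes. It gave 0.56, 0.41, 0.55, 0.50, 0.43 and 0.58, a span narrower than that of Scrn1. Its difference was 0.51 ± 0.05, 1.42-fold (limma's adjusted p = 0.417), with an indirect value of 0.48 ± 0.08.

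Pimreg, a mitotic regulator of the metaphase to anaphase step, was at 0.51, 0.61, 0.61, 0.37, 0.81 and 0.54. The fit gave 0.57 ± 0.08, and the arrays through rostral pools 0.55 ± 0.10. H2az2, a histone H2A variant, was at 0.41 ± 0.06 directly and 0.47 ± 0.10 indirectly. Insm1, a zinc finger factor that promotes the formation of intermediate progenitors in the cortex, was at 0.30, 0.42, 0.46, 0.37, 0.48 and 0.33. Its arrays lay close together around 0.39 ± 0.05, and the indirect value was 0.40 ± 0.10.

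Among the secreted and receptor genes, Ptn, the heparin-binding growth factor pleiotrophin made by radial glia, had the smallest positive difference of the 15. It gave 0.28, 0.39, 0.34, 0.31, 0.41 and 0.30, and the fit 0.34 ± 0.05. Its indirect value was 0.29 ± 0.07. Crhr1, a receptor for corticotropin-releasing hormone, was at 0.43 ± 0.07 directly and 0.37 ± 0.08 indirectly. Tnfaip1, an adaptor of a ubiquitin ligase, was at 0.46 ± 0.06 and 0.41 ± 0.09 indirectly.

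The other positive genes were Pqbp1, a polyglutamine-binding protein active in splicing (0.49 ± 0.07), Pgpep1, a pyroglutamyl peptidase (0.50 ± 0.08), and Pdzph1 (0.55 ± 0.08). Pdzph1 was lower through the rostral pools, at 0.28 ± 0.11, and Pgpep1 had no indirect value. Atpsckmt, a mitochondrial lysine methyltransferase, was at 0.44 ± 0.06. Ccdc28b, a gene tied to cilia, was at 0.38 ± 0.05, but another feature of it on the array was at 0.03 ± 0.06. Dmac2, an assembly factor of respiratory complex I, was at 0.38 ± 0.06, and its other feature at 0.10 ± 0.68 with 5 values. The features of Ccdc28b therefore disagreed, and the second feature of Dmac2 was too variable to compare. Limma's adjusted p was between 0.417 and 0.540 over the 15 genes.

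On the caudal side, Ltbp1 had the lowest p of the 30 genes. It encodes a matrix protein that stores latent TGF-beta. Its arrays gave -0.88, -0.82, -0.81, -1.01, -0.63 and -0.88, all negative, and lowest for middle pool 3 with caudal pool 1. The fit gave -0.84 ± 0.07, 1.79-fold toward caudal (limma's adjusted p = 0.399), and the indirect value was -0.88 ± 0.17.

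Nr2f1 encodes COUP-TFI, a nuclear receptor that promotes caudal area identity. Its arrays gave -0.46, -0.36, -0.57, -0.48, -0.47 and -0.44. The difference was -0.46 ± 0.05, 1.38-fold toward caudal (limma's adjusted p = 0.501), and the indirect value was smaller in size, at -0.25 ± 0.10. A second feature of Nr2f1 was at -0.59 ± 0.11 directly and -0.77 ± 0.26 indirectly. Its array with middle pool 1 in Cy5 was at -0.96, apart from its other arrays at -0.35 to -0.64. Both features were negative on all 6 arrays.

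Gjb6, a connexin of gap junctions, had the largest negative difference, with arrays at -1.10, -1.05, -0.70, -1.25, -1.09 and -0.51. It was at -0.95 ± 0.14 (limma's adjusted p = 0.54) and -1.04 ± 0.23 indirectly. Gja1, the main gap junction protein of radial glia, was at -0.51, -0.61, -0.40, -0.64, -0.58 and -0.30. The arrays closest to 0 for both connexins were those with middle pool 1. Gja1 was at -0.51 ± 0.07 in the fit and -0.52 ± 0.12 indirectly. Gdpd2, a membrane phosphodiesterase, was at -0.51 ± 0.08, and Fabp7, the brain lipid-binding protein of radial glia, at -0.31 ± 0.05 with an indirect value of -0.40 ± 0.09.

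Ptgds, a prostaglandin D synthase that is abundant in the meninges, was at -0.57, -0.92, -0.87, -0.64, -0.63 and -1.09, with a difference of -0.79 ± 0.11 (limma's adjusted p = 0.54) and an indirect value of -0.87 ± 0.17. Nrp2, a receptor for class 3 semaphorins, was at -0.64 ± 0.09 and -0.70 ± 0.14 indirectly. Zcchc12, a zinc finger coactivator of BMP signalling, was at -0.65 ± 0.07 and -0.53 ± 0.10. Adgrl3, a latrophilin adhesion receptor, was at -0.41 ± 0.07 directly but at -0.02 ± 0.36 indirectly.

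Slf1, a protein of the DNA damage response, was at -0.38 ± 0.06 with an indirect value of -0.45 ± 0.07. Nkrf, a repressor of NF-kappa-B, was at -0.32 ± 0.05 with all 6 arrays between -0.41 and -0.23, yet its indirect value was 0.61 ± 0.31. Mrgprf, an orphan receptor, was at -0.86 ± 0.12, but its dye term was 1.09, larger than the difference itself. Chpf, which builds chondroitin chains (-0.92 ± 0.16), and Olfr61, an odorant receptor (-0.76 ± 0.13), had dye terms of 0.69 and 0.71. Chpf and Mrgprf had no indirect value, and that of Olfr61 was -0.85 ± 0.51. Limma's adjusted p was between 0.399 and 0.559 over the 15 genes.

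**Figure D2:**
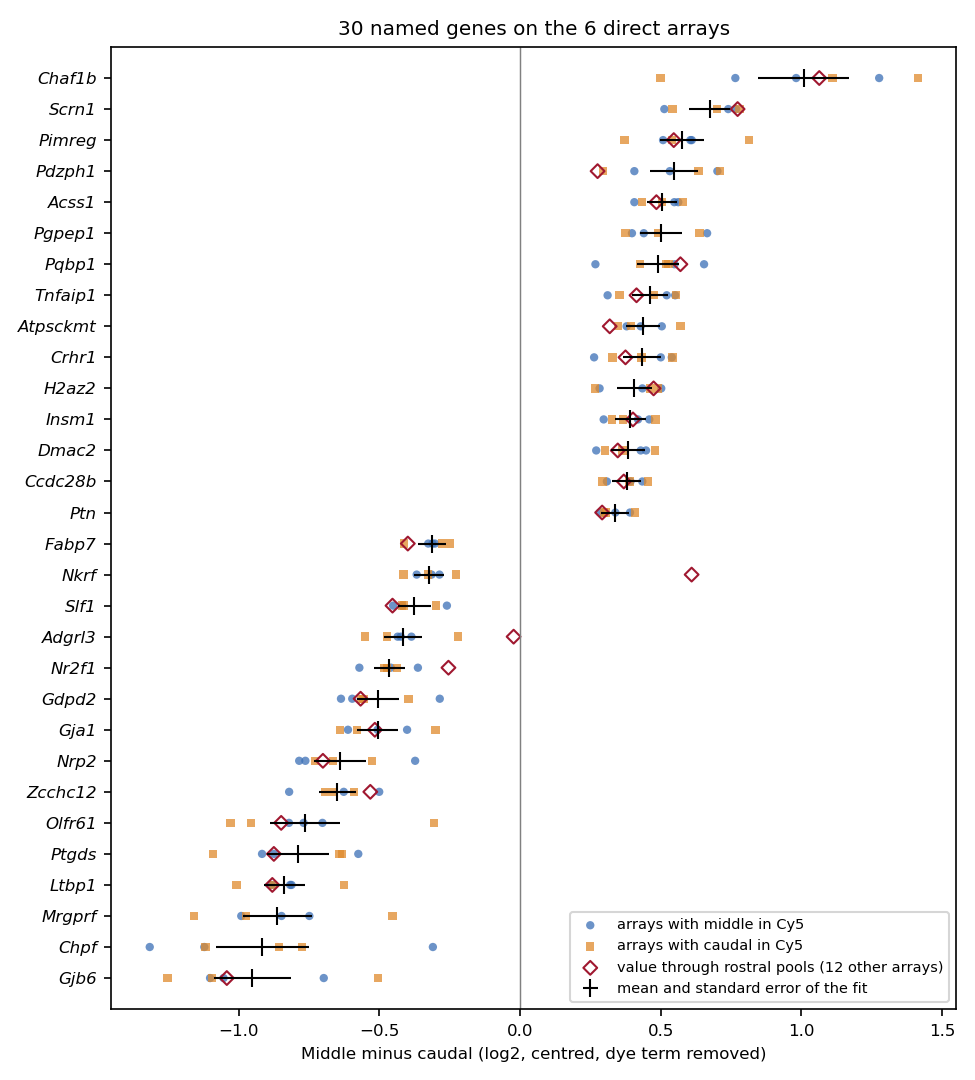
Middle minus caudal differences (log2, horizontal axis) of the 30 named genes. Circles and squares are the 6 direct arrays by dye orientation after removal of the dye term, black bars the fitted mean with its standard error, and red diamonds the value from the 12 arrays that carried rostral pools. The diamonds of Nkrf (0.61) and Adgrl3 (-0.02) lie apart from the direct arrays.

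The test of the direct against the indirect value, fitted to all 18 arrays, called 0 of 18992 features at an adjusted p under 0.05 in limma (0%), and 979 had an unadjusted p under 0.05. For the named genes limma's adjusted p in that test was between 0.842 and 0.984. A p that misses the threshold does not show that both routes gave the same value.

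The pool values over all 18 arrays place these differences on the whole axis. Set against the 9-pool mean, Scrn1 averaged 0.80 at the rostral end, -0.05 in the middle and -0.75 at the caudal end, with steps of similar size. Nr2f1 averaged -0.55, 0.08 and 0.47, with the larger step between rostral and middle. The second feature of Nr2f1 averaged -0.46, -0.09 and 0.56, with the larger step between middle and caudal, so the features of Nr2f1 disagree on where the larger step lies. Chaf1b was at 0.28, 0.37 and -0.65, and Acss1 at 0.24, 0.13 and -0.37, so that rostral and middle means were near each other and caudal means lay apart. Ltbp1 (-0.44, -0.21 and 0.65), Gjb6 (-0.25, -0.37 and 0.62) and Ptgds (-0.16, -0.33 and 0.49) had caudal means apart in the other direction.

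Fabp7, Mrgprf and Adgrl3 had another profile, with rostral and caudal means near each other and both above the middle mean. Fabp7 averaged 0.10, -0.22 and 0.12, Mrgprf 0.21, -0.45 and 0.24, and Adgrl3 0.09, -0.19 and 0.10. The rostral pools of Adgrl3 ran from -0.41 to 0.58. The caudal step minus the rostral step was -0.66 ± 0.12 for Fabp7 and -1.36 ± 0.24 for Mrgprf. It was -0.14 ± 0.19 for Scrn1 and 1.12 ± 0.32 for Chaf1b. Since the genes were chosen by their caudal step, the signs of these values follow in part from that choice. Limma called 0 of 18525 features for a difference between the steps (0%), and 752 had an unadjusted p under 0.05.  For comparison, rostral against caudal on the 9 pools called 12 of 18525 features in limma (0.0648%). Among the 30 genes, limma's adjusted p for rostral against caudal was 0.0138 for Scrn1 and for Nr2f1, 0.0272 for Pdzph1 and 0.0492 for Ptn.

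**Figure D3:**
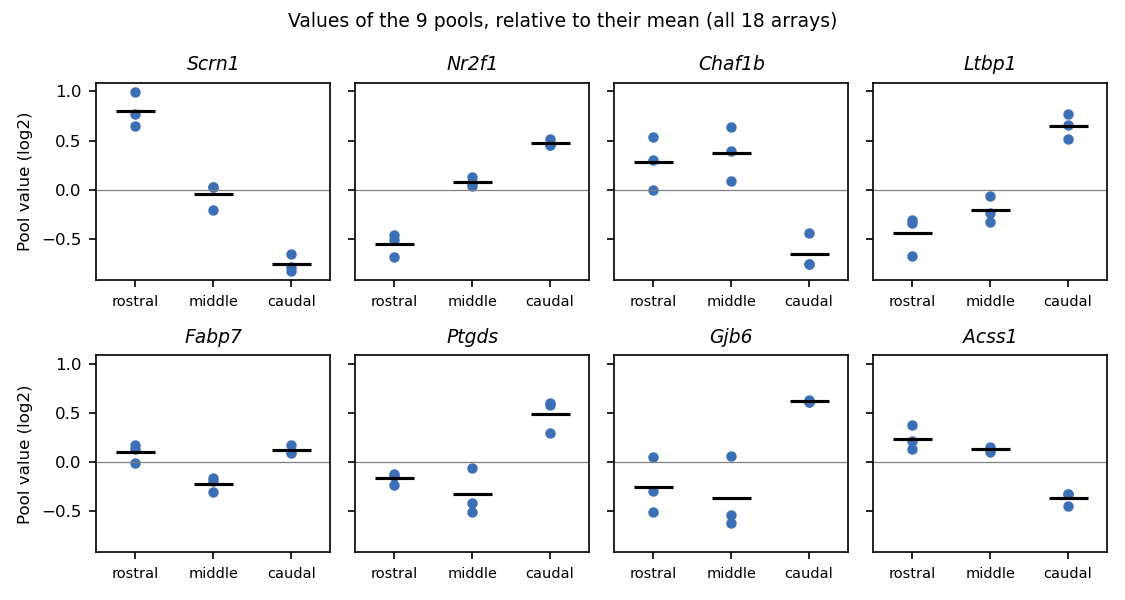
Values of the 9 pools (log2, relative to their mean) for 8 of the named genes, from a fit over all 18 arrays. Points are the 3 pools of a region and black lines their means. Scrn1 goes from 0.80 to -0.75 along the axis, whereas Fabp7 is lowest in the middle pools (-0.22).

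Relative to caudal tissue, the genes of cell division lay mostly on the middle side. Of 32 measured DNA replication genes, 27 had a positive and 5 a negative value, with a median of 0.096. Over all 13516 genes, 6621 were positive and 6895 negative, with a median of -0.003. Limma called 0 of the 32 at an adjusted p under 0.05. At an unadjusted p under 0.05 there were 6 positive (18.8%) and 0 negative, where all genes gave 3.72% and 2.32%. Lists with slightly negative medians also exceeded these shares. Cortical neuron genes had 16% positive and 0 negative, and radial glia genes 9.52% on each side. The list median was positive on each array, at 0.06, 0.10, 0.09, 0.18, 0.11 and 0.01.

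Besides Chaf1b, the 3 lowest p of the list included Fen1 and Mcm3. Fen1, the nuclease that trims Okazaki fragments, gave 0.43, 0.29, 0.74, 0.43, 0.59 and 0.44, a difference of 0.49 ± 0.08 (limma's adjusted p = 0.54) and an indirect value of 0.40 ± 0.10. Mcm3, a subunit of the replicative helicase, gave 0.21, 0.48, 0.59, 0.26, 0.53 and 0.48, a difference of 0.42 ± 0.08 (limma's adjusted p = 0.592) and an indirect value of 0.39 ± 0.07. The arrays with middle pool 3 were the lowest for Mcm3. The others at an unadjusted p under 0.05, named after their values were seen, were Rrm2, a subunit of ribonucleotide reductase (0.33 ± 0.07), Mcm4 (0.18 ± 0.07) and the primase subunit Prim1 (0.15 ± 0.06).

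Many replication genes are known targets of E2F factors, which bind short GC-rich sites near the start of transcription. The promoter windows of RefSeq, 250 bases before to 50 after the start on GRCm38.p6, were searched on both strands for the letters TTTCCCGC, TTTCGCGC, TTTGCCGC and TTTGGCGC, forms of the E2F consensus. The search was chosen after the values of the list were seen. Of the 27 replication genes with a window, 10 held such letters (37%), as did 1 of 24 mitosis genes (4.17%), 0 of 16 meningeal genes, 423 of 10557 genes tested (4.01%) and 744 of all 32851 windows (2.26%). Of the replication genes named above that had a window, only Mcm3 held them, with 2 matches that do not overlap. The windows of Mcm3 and of Chaf1b, the gene with the largest value, are shown to compare a window with and without these letters, which are in capitals. The Mcm3 window is on the minus strand at chr1:20820263-20820562 and the Chaf1b window on the plus strand at chr16:93883651-93883950.
Mcm3: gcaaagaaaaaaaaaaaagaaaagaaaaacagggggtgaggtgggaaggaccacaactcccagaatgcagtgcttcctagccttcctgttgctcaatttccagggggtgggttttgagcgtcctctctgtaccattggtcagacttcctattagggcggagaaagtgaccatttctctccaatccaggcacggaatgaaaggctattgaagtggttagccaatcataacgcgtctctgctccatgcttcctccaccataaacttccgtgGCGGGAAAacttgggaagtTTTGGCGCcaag
Chaf1b: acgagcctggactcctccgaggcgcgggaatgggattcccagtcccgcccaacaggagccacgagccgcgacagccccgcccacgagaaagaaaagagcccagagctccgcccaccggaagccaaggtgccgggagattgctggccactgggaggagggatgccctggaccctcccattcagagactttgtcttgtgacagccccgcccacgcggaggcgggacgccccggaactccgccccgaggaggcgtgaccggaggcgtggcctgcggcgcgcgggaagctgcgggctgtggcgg
A match is a description of the letters and not a binding site. The shares depend on the lists and not on the arrays, so they do not bear on the difference between middle and caudal. Any part of E2F factors in that difference was not tested. The Chaf1b window holds none of these letters, which says nothing of the factor. It does hold gcgggaat and gcgggaag, which differ from the Mcm3 match GCGGGAAA only in the last base.

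Of 30 measured genes of mitosis, 27 were positive and 3 negative, with a median of 0.070 and 0 called. The mitosis median by array was 0.08, 0.12, -0.01, 0.09, 0.04 and 0.07, and without caudal pool 2 only 20 of 30 genes were positive. The indirect medians of mitosis and replication were 0.073 and 0.071, where all genes had an indirect median of 0.023. Over the 9 pools the mitosis medians were 0.061, 0.052 and 0.071 in rostral pools, and -0.017, 0.011 and 0.030 in middle pools. They were -0.066, -0.075 and -0.009 in caudal pools. A positive value here is thus no peak in the middle pools. Bub3 and Bub1b, proteins of the spindle checkpoint, were the 2 at an unadjusted p under 0.05 (6.67%, 0 negative). Bub1b gave 0.23, 0.26, 0.23, 0.01, 0.44 and 0.27, for a difference of 0.24 ± 0.08, and its indirect value was 0.03 ± 0.06. Bub3 was at 0.33 ± 0.10. Cenpf, a kinetochore protein, was at 0.83 ± 0.58, with 1 array at 3.00 and the others from -0.66 to 0.93.

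Of 19 cyclins, cell cycle inhibitors and related regulators, 14 were positive and 5 negative, with a median of 0.073 and 3 positive at an unadjusted p under 0.05 (15.8%, 0 negative). These were Cdkn2d, an inhibitor of the CDK4 and CDK6 kinases (0.39 ± 0.07), the transcription factor gene E2f1 (0.22 ± 0.07) and cyclin D2, Ccnd2 (0.16 ± 0.05). Cdkn2d gave 0.28, 0.43, 0.44, 0.21, 0.49 and 0.46, lowest with middle pool 3. The median of this list by array ran from -0.001 to 0.25. A list of histones and chromatin proteins had 18 of 27 genes positive and a median of 0.029, with 5 positive (18.5%) and 0 negative at an unadjusted p under 0.05. Its lowest p belonged to Hmgb2, a high mobility group protein of dividing cells (0.34 ± 0.06), the histone variant H2az1 (0.44 ± 0.08) and the nucleosome-binding protein Hmgn2 (0.17 ± 0.06). Limma called 0 genes of either list.

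These directions hold relative to the array medians. Without centring, the median over all features was -0.16. The list medians became -0.061 for replication, -0.087 for mitosis, -0.084 for cyclins and inhibitors and -0.128 for histones and chromatin. Each is above the median of all genes (-0.160) but below 0. With each pool left out in turn, the replication median lay between 0.065 and 0.131 and the mitosis median between 0.054 and 0.091. The median of cyclins and inhibitors lay between 0.053 (without caudal pool 2) and 0.139 (without caudal pool 1). It was 0.129 without middle pool 2 and 0.123 without caudal pool 3. The histone and chromatin median lay between 0.014 (without caudal pool 1) and 0.060 (without caudal pool 2). It was 0.049 without middle pool 2, and 0.047 without middle pool 3 or without caudal pool 3.

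**Figure D4:**
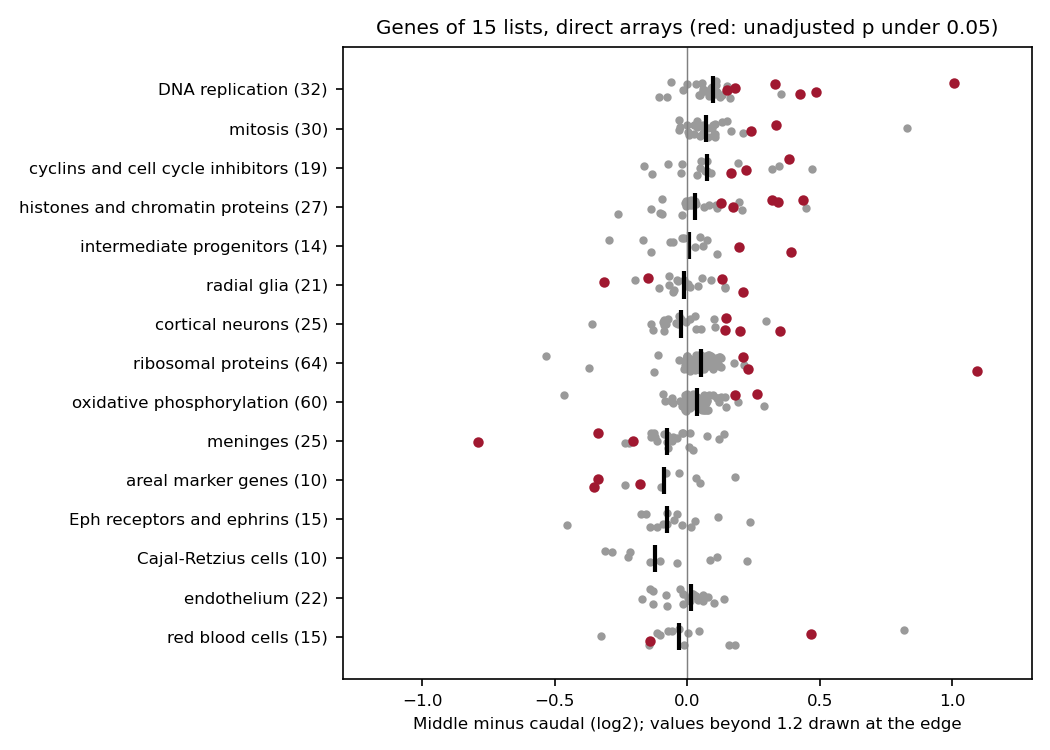
Middle minus caudal differences (log2) of the measured genes of 15 lists, with the number of genes in brackets. Grey points are single genes, red points those with an unadjusted p under 0.05, and black lines list medians (0.096 for DNA replication, -0.077 for meninges). No gene passed an adjusted p of 0.05.

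Of the 32 lists, 13 kept the sign of their median with each of the 6 pools left out in turn, and for 19 the sign turned without at least 1 pool. The medians of the lists that follow are given with their values over these omissions where they move.

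Progenitor and neuron genes, which define the labelled tissue, were measured in 21, 14 and 25 members for radial glia, intermediate progenitors and cortical neurons. A ratio shows no level, so these genes show only that the features gave values. Radial glia had 9 genes positive and 12 negative, with a median of -0.013 (-0.041 to 0.008 with 1 pool left out) and 2 on each side at an unadjusted p under 0.05 (9.52% each). Vim, their intermediate filament, gave -0.12, -0.18, -0.14, -0.18, -0.15 and -0.10, for -0.15 ± 0.05, on the same side as Fabp7. Hes5, a Notch effector, was on the other side at 0.21 ± 0.08.

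Intermediate progenitor genes were balanced, with 7 positive, 7 negative and a median of 0.008, which ran from -0.026 without caudal pool 1 to 0.053 without caudal pool 2. Insm1 and Mfng, a glycosyltransferase acting on Notch (0.20 ± 0.06), were the 2 at an unadjusted p under 0.05 (14.3%). Among cortical neuron genes 11 were positive and 14 negative, with a median of -0.023 (-0.038 to 0.005 with 1 pool left out), and 4 were positive at an unadjusted p under 0.05 (16%) against 0 negative. The 3 with the lowest p were Bcl11b, a factor of corticospinal neurons (0.14 ± 0.05), the deep layer factor gene Foxp2 (0.35 ± 0.12) and the neuronal tubulin gene Tubb3 (0.20 ± 0.07). Limma called 0 genes of the 3 lists.

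Patterning genes other than Nr2f1 gave mostly smaller values. Of 11 genes reported as caudal, 9 were negative, with a median of -0.040, and only Nr2f1 had an unadjusted p under 0.05. The median was -0.103 without caudal pool 1, -0.083 without middle pool 3, -0.064 without middle pool 2, -0.027 without middle pool 1 and -0.014 without caudal pool 3. The indirect median was 0.015, below the 0.023 of all genes. The hem ligand gene Wnt8b was at -0.23 ± 0.10 and Wnt5a, another ligand of the hem, at -0.11 ± 0.09. Emx2, a homeobox factor higher in caudal cortex by report, was at -0.11 ± 0.09, with arrays from -0.39 to 0.05. Of 10 genes reported as rostral, 8 were positive, with a median of 0.097. That median was 0.223 without caudal pool 3, 0.218 without middle pool 1, 0.190 without middle pool 2 and 0.065 without caudal pool 2. Spry2, a feedback inhibitor of FGF signalling (0.23 ± 0.08), had the lowest p, followed by the ETS factor genes Etv1 (0.21 ± 0.09) and Etv4 (-0.09 ± 0.05). Nr2f1 and Etv1 were used above to read the direction of the ratio, so their signs in these lists are not separate evidence.

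The FGF pathway had 14 of 20 genes positive and a median of 0.06, which ran from 0.041 without middle pool 1 to 0.120 without middle pool 2, with 0.096 without caudal pool 3. The membrane protein gene Flrt3 was at -0.32 ± 0.09 and the receptor gene Fgfr1 at 0.17 ± 0.06. Dorsal midline genes of the WNT and BMP pathways were even, with 15 of 31 positive and a median of -0.003 (-0.029 to 0.019 with 1 pool left out). Within them Sfrp1, a secreted WNT antagonist, gave 0.69, 0.80, 0.15, 0.80, 0.38 and 0.47. The array of middle pool 1 with caudal pool 3 was the lowest, and the fit gave 0.55 ± 0.12 (limma's adjusted p = 0.679) with 0.66 ± 0.14 indirectly. Rspo3, an enhancer of WNT signalling, was at -0.20 ± 0.07. Notch pathway genes had 9 of 23 positive and a median of -0.020. It turned to 0.050 without caudal pool 1, with 13 of 21 genes positive, to 0.044 without middle pool 3 and to 0.015 without middle pool 2, and was -0.059 without caudal pool 2. Homeobox, Pax and Zic factors had 17 of 34 positive and a median of -0.008 (-0.025 to 0.020 with 1 pool left out).

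Among 13 retinoid genes, 4 were positive and the median was -0.055. It was 0.002 without middle pool 1, -0.009 without caudal pool 3, -0.021 without caudal pool 1 and -0.029 without middle pool 2. The indirect median was 0.065 over the 11 genes that have it, against 0.023 for all genes. Crabp1, a binding protein for retinoic acid, gave 0.18, 0.60, 0.47, 0.56, 0.41 and 0.28, for 0.42 ± 0.09 (limma's adjusted p = 0.632), and 0.37 ± 0.11 indirectly. Its rostral, middle and caudal means were -0.29, 0.34 and -0.06, so the middle pools were above both ends. Stra6, the receptor for retinol-binding protein, was at -0.26 ± 0.09 directly and 0.11 ± 0.11 indirectly.

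Of 10 genes that mark cortical areas later, 7 were negative, with a median of -0.089 and 3 negative at an unadjusted p under 0.05 (30%). The median was -0.165 without caudal pool 2 and -0.059 without caudal pool 3, and the indirect median was -0.159. Lmo4, a LIM-only cofactor, gave -0.30, -0.26, -0.49, -0.11, -0.37 and -0.57, for -0.35 ± 0.08 (limma's adjusted p = 0.748). Crym, a thyroid hormone-binding protein, was at -0.34 ± 0.09 and the teneurin gene Tenm2 at -0.18 ± 0.06. Eph receptors and ephrins had 11 of 15 negative, a median of -0.077 and 0 at an unadjusted p under 0.05. That median ran from -0.117 without middle pool 1 to -0.040 without middle pool 3, with -0.115 without caudal pool 2 and -0.049 without caudal pool 1. Axon guidance genes had 13 of 23 negative and a median of -0.028, which was -0.145 without caudal pool 2, -0.071 without middle pool 1, -0.064 without middle pool 3, 0.005 without caudal pool 3 and 0.001 without caudal pool 1. In that list was the semaphorin gene Sema3c, at -0.25 ± 0.09 beside its receptor gene Nrp2. Hippocampal and medial pallium genes had 10 of 15 negative, a median of -0.032 (-0.081 without caudal pool 2 to -0.027 without caudal pool 3), and Zbtb20, a factor of hippocampal identity, at -0.19 ± 0.06. Cadherins had 10 of 17 negative and a median of -0.013 (-0.068 without caudal pool 2 to 0.037 without middle pool 2).

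Markers of the meninges, the covering of the brain, lay mostly on the caudal side. Of 25 measured meningeal markers, 6 were positive and 19 negative, between -0.79 and 0.14, with a median of -0.077. Limma called 0 of them, and 3 were negative at an unadjusted p under 0.05 (12%, against 2.32% of all genes) with 0 positive. They were Ptgds and the matrix proteoglycan genes Dcn and Lum. Dcn gave -0.30, -0.41, -0.30, -0.35, -0.48 and -0.19, for -0.34 ± 0.06, and Lum -0.20 ± 0.08. The list median by array was -0.06, -0.05, -0.11, -0.10, -0.16 and 0.04, and it was -0.140 without caudal pool 2, -0.038 without caudal pool 3 and -0.050 without middle pool 3. The part of the meninges in the values of Ptgds, Ltbp1, Gjb6, Gja1 and Nrp2 was not tested.

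Most marker lists of other tissues had medians near that of all genes. Endothelial markers had 13 of 22 positive with a median of 0.015, and microglial markers 8 of 16 with -0.001. Ventral telencephalon was at 0.012 (11 of 17 positive), diencephalon at -0.002 (6 of 13), choroid plexus at -0.009 (6 of 12), red blood cells at -0.031 (6 of 15) and surface epithelium at 0.009 (5 of 10). With 1 pool left out the epithelial median ran from -0.127 (without caudal pool 2) to 0.084 (without caudal pool 1), and that of red blood cells from -0.074 to -0.013. The endothelial, microglial, ventral, diencephalic and choroid plexus medians each took both signs, within -0.051 and 0.046. Cajal-Retzius markers had 7 of 10 negative and a median of -0.123, with 0 at an unadjusted p under 0.05. The indirect median over 7 of them was 0.056, on the other side of 0, where all genes had 0.023. The median over the 9 pools was -0.050, and the direct median without middle pool 2 was -0.067. Reln, the signal protein of those cells, was at -0.29 ± 0.12, with arrays from -0.52 to 0.04. Xist and Y-linked genes had a median of 0.009 over 9 genes (-0.046 to 0.024 with 1 pool left out) and 0 at an unadjusted p under 0.05. Their values ran from -0.30 to 0.27. Xist and the Y-linked genes mark opposite sexes, so a median over both cannot show whether the pools match in sex.

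Single members of these lists were larger but uneven. Olig1, an oligodendrocyte lineage factor of the ventral telencephalon list, was at 0.48 ± 0.13 with arrays from 0.07 to 0.79. The homeobox gene Irx5 of the diencephalon list was at 0.82 ± 0.28 on 5 arrays. Slc4a1, the anion exchanger of red blood cells, was at 0.47 ± 0.15. Of 19 immediate early and heat shock genes, 11 were positive, with a median of 0.028 (-0.024 without middle pool 3) and an indirect median of -0.051. Egr1, an immediate early factor, was at 1.01 ± 0.26, with 1 array at 2.01 and the others from 0.37 to 1.11. Fosb, of the same class, was at -0.81 ± 0.31, so these early response genes lay on both sides.

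Among the 6 pools of the direct arrays, caudal pool 1 stood apart in genes of general metabolism. Of 64 ribosomal protein genes 52 were positive, with a median of 0.053, and of 60 genes of oxidative phosphorylation 45 were positive, with a median of 0.036. The ribosomal median was 0.26 and 0.20 on the arrays that carried caudal pool 1 and between -0.08 and 0.00 on the other 4 arrays. The oxidative phosphorylation median was 0.19 and 0.21 on those arrays and between -0.06 and 0.01 on the others. The Gapdh control spots, left out of all tests, were at 0.26 and 0.20 there and between -0.04 and 0.05 elsewhere. Over all 9 pools, rostral pool 3, which is on none of the direct arrays, lay further out: its ribosomal median was -0.206 against -0.130 for caudal pool 1, and its oxidative phosphorylation median -0.159 against -0.142. Without caudal pool 1 the ribosomal median of the direct arrays was -0.031, with 19 of 63 genes positive, and that of oxidative phosphorylation -0.025, with 20 of 59 positive. Other omissions moved them too: the ribosomal median was 0.029 without middle pool 2, 0.082 without caudal pool 2, 0.102 without middle pool 1 and 0.106 without caudal pool 3. That of oxidative phosphorylation was 0.007 without middle pool 3, 0.020 without middle pool 2, 0.071 without caudal pool 2, 0.079 without caudal pool 3 and 0.089 without middle pool 1.

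Without that pool the medians stayed positive for replication (0.065, 28 of 32 genes positive) and mitosis (0.054, 21 of 30). That of cyclins and cell cycle inhibitors, a list that mixes genes for and against division, was 0.139, with 14 of 19 positive. The meningeal median was then -0.074 and that of the area markers -0.065. At an unadjusted p under 0.05, 3 ribosomal genes (4.69%) and 2 of oxidative phosphorylation (3.33%) were positive and 0 negative. Rpl7a (0.23 ± 0.06) and Rpl29 (0.21 ± 0.06), of the large ribosomal subunit, had 6 values each. Rpl37, at 1.09 ± 0.25, had 4 values and 0 from caudal pool 1.

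**Figure D5:**
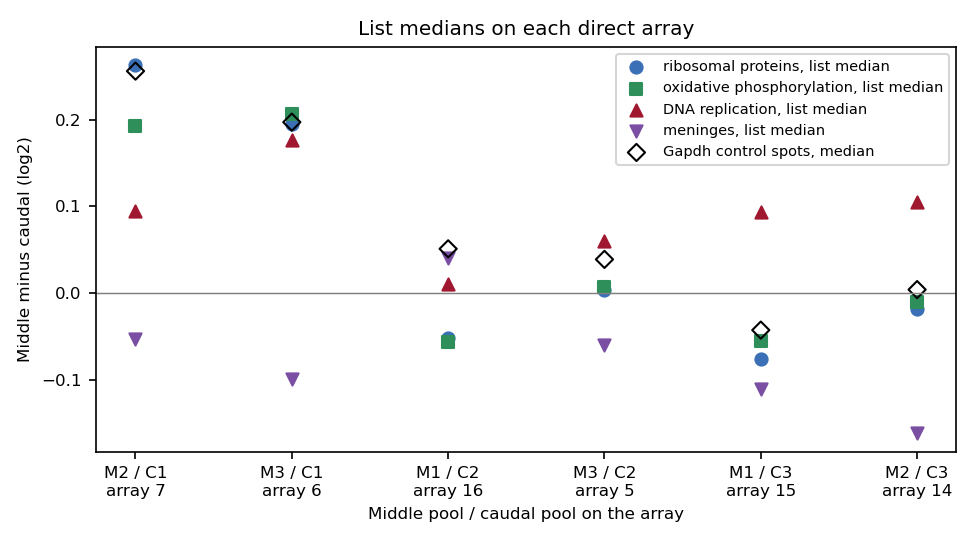
Median middle minus caudal value (log2) of 4 gene lists and of the Gapdh control spots on each of the 6 direct arrays, which are labelled by their middle (M) and caudal (C) pool. Both arrays with C1 have ribosomal medians of 0.20 and 0.26, while the replication median is positive on all 6 arrays.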

How the data were processed

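The authors deposited 1 log2 ratio per probe and array (21998 probes, 18 arrays). The sources used here do not give the scanner, background correction or normalization. The base was read from the values: the highest, 16.61, equals log2 of 100000 and marks capped ratios, while the next is 7.57. Each of the 6 direct arrays was centred on its median over probes other than the 232 Gapdh control spots, and capped ratios (41 to 193 per array) were set missing. The 6 arrays held 1032 to 3488 missing values as deposited. Features needed 2 values in each orientation.

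Limma 3.58.1 (R 4.3.3) was fitted with region and dye. Arrays that share a pool are not independent, so 1 correlation between them, 0.17 over 14827 features, was estimated and removed before the fit, leaving 4 residual degrees of freedom with 6 values. eBayes added 1.24 prior degrees of freedom. P-values were two-sided and adjusted by Benjamini and Hochberg. Pool values over 18 arrays came from least squares with a dye term and were fitted with limma by region. The same steps were tested on simulated data.

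Gene names came from the platform annotation: 16632 probes had 1 symbol, 139 had several and 4995 are unnamed here. Named genes had exactly 1 symbol, 1 feature per gene (most values), 6 values, the same sign on 6 arrays and a size of 0.3 or more, ranked by p, 15 per direction, since 0 passed. Of each of the 32 lists, the genes with the 3 lowest p and the defining markers could be named. The members, the lists and the tests were chosen with earlier results of these data known. Figures were drawn with matplotlib 3.10.9.

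Same-numbered pools were not treated as paired in the main fit. The correlations across features of their deviations from the region means were -0.08, -0.36 and -0.06. Middle and caudal pools of the same number never shared an array, which can itself lower these correlations. They therefore do not show whether such pools came from the same embryos.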

Additional observations from a re-analysis of the deposited data

How the results depend on the processing

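The count of called features was 0 in the main fit and in each alternative but 1. With capped ratios kept it was 1: Pate13, at -7.59 (limma's adjusted p = 0.017), which has 5 values of which 2 were capped. With each pool or array left out in turn the count stayed at 0, with 522 to 1043 features at an unadjusted p under 0.05. With arrays that share a pool taken as independent it was 0, with 1592 such features, and 422 with pool values solved around the ring. With the pool number as a replicate block on the 9 pool values, 0 features were called for middle against caudal and 0 for the difference between the steps.

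The dye term was called for 42 features, for 0 with arrays taken as independent and for 434 among features with 6 values, where 14827 and not 18809 were tested. The direct against indirect test and the step difference called 0 in every alternative run. Of 715 alternative values for the 30 genes, 714 kept their sign and stayed uncalled. The genes were chosen for the same sign on all 6 direct arrays. Every setting but the indirect one used those arrays, so kept signs there follow largely from that choice. Only the indirect values come wholly from other arrays, though from the same RNA pools. Of these, 26 kept the sign and 1 turned. The sign turned for Nkrf alone, at 0.61 through the rostral pools. The cause was not tested. Nkrf was at -0.01 over the 9 pools.

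Without centring, 9 of the 30 genes moved by over 1.5 times, 8 toward 0 and 1 (Fabp7, to -0.47) away from it: Ptn was at 0.18, Ccdc28b at 0.22, Dmac2 at 0.23, Insm1 at 0.23, H2az2 at 0.25, Crhr1 at 0.28, Atpsckmt at 0.28 and Tnfaip1 at 0.30. Centring sets the balance of signs: without it, 58 features were positive and 311 negative at an unadjusted p under 0.05, against 639 and 454. List medians without each pool and under other scaling were added after seeing the data. The 6 arrays and 3 pools per region limit what can be called.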

Other observations

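Features with fewer than 6 values could not be among the named genes, and the largest differences with a low p were among them. They were chosen here after their values were seen. A feature of Crtc3, a coactivator of CREB, gave -2.89, -3.23, -2.37, -3.01 and -2.66 on 5 arrays, for a difference of -2.83 ± 0.17 (limma's adjusted p = 0.399). Its dye term was 3.05, and another feature of Crtc3 with 6 values was at 0.12 ± 0.06, so the 2 features disagree. Rnf186, a ubiquitin ligase gene, gave -2.21, -2.57, -2.41 and -2.40 on 4 arrays, for -2.39 ± 0.10 (limma's adjusted p = 0.399). Neither had an indirect value.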
